A study of Arabidopsis thaliana with 8 samples.

Results

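The mitochondrial genes atp4 and atp8, which encode the membrane-stalk subunits of ATP synthase, were followed by name through 1 table of ribosome footprints and 2 tables of RNA editing from Arabidopsis thaliana flowers. They are 2 of the 33 mitochondrial genes with footprint values. The editing tables list 434 sites, of which 10 bear the name atp4 and 0 the name atp8. Footprints came from ribosome profiling (Ribo-seq), which sequences the mRNA fragments that ribosomes shield from nuclease, in the mutants mtl1 and mtsf1 and in wild type Col-0, with 2 libraries (A and B) per genotype. Editing was read from RNA-seq of 2 Col-0 libraries, made from total RNA freed of ribosomal RNA.

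Both mutants are in the Col-0 background and affect a pentatricopeptide repeat (PPR) protein, a class of organellar RNA-binding proteins. The labels tie mtl1 to nad7 mRNA translation and mtsf1 to nad4 mRNA stability, and they give no allele or line. All plants grew under long days for 10 to 12 weeks, and flowers of all genotypes were collected at the same time. Whether libraries A and B of a genotype came from different plants is not in the labels, so each p-value rests on a spread that may be technical. With no mutant RNA-seq analysed here, mRNA amount and translation cannot be told apart in any footprint value. Markers of flower tissue could not be checked, since the footprint table holds mitochondrial genes alone. The genotype labels were checked on the targeted genes: nad7 had 460 and 394 normalized counts in mtl1, against 8132 and 6785 in Col-0, and nad4 had 216 and 207 in mtsf1, against 13818 and 11147 in Col-0.

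ATP synthase makes ATP from the proton gradient across the inner mitochondrial membrane. Its membrane sector conducts protons and turns a ring of c subunits, and its catalytic head, which holds the alpha subunit encoded by atp1, is kept from turning along by a peripheral stalk. atp4 encodes the plant counterpart of subunit b, which anchors that stalk in the membrane, and atp8 encodes subunit 8, a small membrane protein that lies beside the a subunit at the foot of the stalk in the yeast enzyme. Plant mitochondria also edit their RNA, turning certain cytidines into uridines, which sequencing shows as T in place of C, and most such changes in coding sequence alter the amino acid.

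Both genes are single uninterrupted coding exons on the mitochondrial genome (MT) of the TAIR10.1 assembly, which may not be the build the authors used. atp4 lies on the plus strand at MT:362206-362784, with a coding length of 579 bases and 192 residues, and its 3′ UTR is annotated at MT:362785-362856. It follows nad4L, a complex I gene at MT:361637-361939, on the same strand after 266 bases. atp8 lies on the minus strand at MT:247016-247492, with a coding length of 477 bases and 158 residues, between an annotated 5′ UTR at MT:247493-247720 and a 3′ UTR at MT:246895-247015. It stands 1685 bases upstream of nad7, which is read from the same strand.

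The 10 listed atp4 sites all lie inside the coding sequence, and 6 windows of the coding strand of TAIR10.1, 26 bases each and written 5′ to 3′, hold all of them. They are shown because the edited bases and their neighbours decide which codons change. Capitals mark the listed sites, all of them C in the genome. Positions count from 1 at the first base of the start codon.
Position 89, MT:362274-362299: attaagttcgaagaagatctCaatct
Positions 138 and 144, MT:362329-362354: tttataggctttatCatattCagtcg
Position 215, MT:362400-362425: ccaggctattcaggaagaatCgcagc
Positions 248, 250 and 251, MT:362435-362460: atcctaacgaagtagttcCtCCggaa
Positions 382 and 395, MT:362580-362605: ccgaaacCtaaatgttaagtCagcaa
Position 416, MT:362601-362626: agcaacacttacaaatgccaCttctt
The sequence deposited by the authors for position 250 is the same window with the 3 sites written as edited.
Positions 248, 250 and 251, deposited: atcctaacgaagtagttcTtTTggaa

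Footprints of atp8 fell in mtsf1 and those of atp4 did not pass the test in either mutant. Values are the authors' normalized counts per gene. atp4 had 7996 and 8275 normalized counts in mtl1 A and B, 7698 and 5725 in mtsf1 A and B, and 8521 and 9728 in Col-0 A and B. Every mutant library lay below both Col-0 libraries, and the lowest value was that of mtsf1 B. atp8 had 14029 and 12107 normalized counts in mtl1, 6228 and 9344 in mtsf1, and 19220 and 15337 in Col-0. The 3 genotypes did not overlap for either gene: Col-0 was highest, mtl1 intermediate and mtsf1 lowest. For atp8, mtsf1 A was the lowest of the 6 libraries. Such separation was common among the 33 genes. Both mtl1 libraries lay below both Col-0 libraries for 15 genes (45.5%), and both mtsf1 libraries did so for 13 (39.4%). Both mtl1 libraries lay above both mtsf1 libraries for 11 genes (33.3%).

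**Figure D1:**
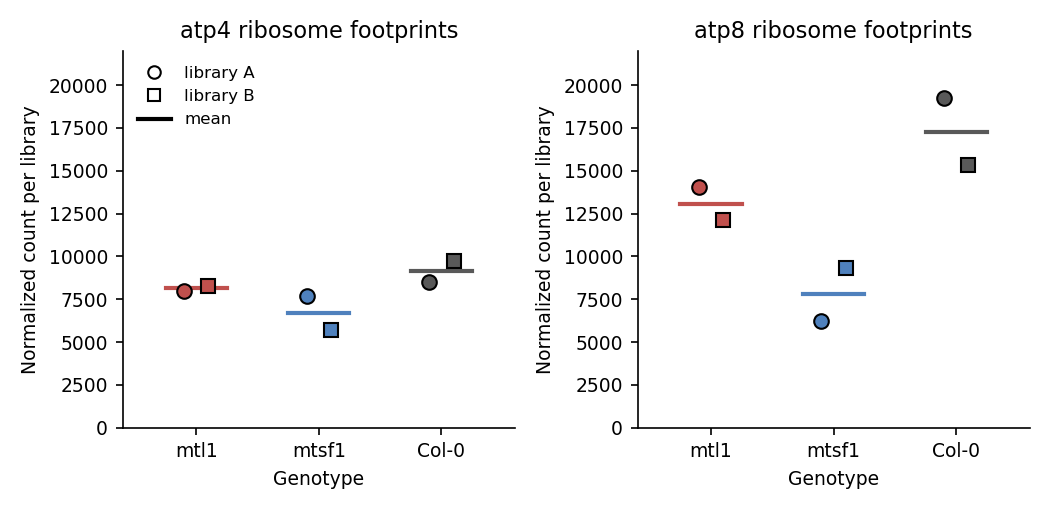
Normalized footprint counts (y axis, from 0) of atp4 and atp8 in mtl1, mtsf1 and Col-0, with a circle for library A, a square for library B and a line for the mean of the 2. In mtsf1, atp8 sits at 6228 and 9344 and atp4 at 7698 and 5725, each gene below its own values in the other 4 libraries.

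Against Col-0, atp8 was 2.25-fold lower in mtsf1 (95% interval 1.63 to 3.10; n = 2 libraries each), a log2 fold change of -1.17 ± 0.23 (SE). Its group means were 7786 ± 2203 normalized counts in mtsf1 and 17279 ± 2746 in Col-0 (SD, n = 2 each). The limma adjusted p (Benjamini-Hochberg over 33 genes) was 1.32e-05, and 16 of 33 genes, 48.5%, passed 0.05 in this contrast. The call held with each of the 6 libraries left out in turn. With each gene's own variance in place of the shared one, the limma adjusted p was 0.0878, and over all 15 alternatives it ranged from 1.09e-05 to 0.0878.

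atp4 averaged 6712 ± 1395 normalized counts in mtsf1 and 9125 ± 853 in Col-0 (SD, n = 2 each). The log2 fold change was -0.46 with a 95% interval from -0.92 to 0.01, and the limma adjusted p was 0.0892. 1 library decided this result: without mtsf1 A the change was -0.67 and passed (limma adjusted p = 0.0471, range over the 15 alternatives 0.0471 to 0.666), and without mtsf1 B it was -0.24. Both genes had every mtsf1 library below every Col-0 library, as 13 of the 33 genes did, or 39.4%.

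In mtl1 neither gene passed. atp4 averaged 8136 ± 197 normalized counts in mtl1 and 9125 ± 853 in Col-0 (SD, n = 2 each), with a log2 fold change of -0.16 (95% interval -0.63 to 0.30) and a limma adjusted p of 0.556. atp8 averaged 13068 ± 1359 in mtl1 and 17279 ± 2746 in Col-0 (SD, n = 2 each), with a log2 fold change of -0.40 (95% interval -0.86 to 0.07) and a limma adjusted p of 0.179. The test called 11 of 33 genes, 33.3%, in this contrast. Both genes lay lower in every mtl1 library than in every Col-0 library, which 15 of the 33 genes did, or 45.5%. The intervals leave room for a decrease of 1.54-fold in atp4 and 1.82-fold in atp8.

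Between the mutants, atp8 was 1.71-fold higher in mtl1 than in mtsf1 (95% interval 1.24 to 2.36; log2 fold change 0.77, limma adjusted p = 0.00622). The call was lost without mtsf1 A (log2 fold change 0.48, limma adjusted p = 0.252) and without mtl1 A (0.67, limma adjusted p = 0.0898). Over the 15 alternatives the limma adjusted p ranged from 0.00202 to 0.306, the highest with each gene's own variance. atp4 did not pass (log2 fold change 0.29, 95% interval -0.17 to 0.76, limma adjusted p = 0.367). 8 of 33 genes, 24.2%, were called between the mutants. Both genes were higher in every mtl1 library than in every mtsf1 library, as were 11 of 33 genes, a share of 33.3%. The contrasts of each mutant with Col-0 use the same 2 Col-0 libraries.

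The deposited totals were 227755 and 216316 in mtsf1, 259933 and 265020 in mtl1, and 290301 and 270243 in Col-0, so the scale of the libraries bears on these folds. Scaling to equal totals moved the median log2 fold change of all 33 genes in mtsf1 against Col-0 to 0.36, against 0.03 as deposited. Relative to that median, atp8 lay at -1.20 and atp4 at -0.48, as deposited and after scaling to equal totals. These values could not differ between the scalings, because rescaling libraries shifts every gene and the median by the same amount. Their equality is therefore no check of the result. After scaling to equal totals, atp8 still passed in mtsf1 against Col-0 (log2 fold change -0.83, limma adjusted p = 0.000662) and in mtl1 against mtsf1 (0.53, limma adjusted p = 0.0439), and atp4 stood at -0.12 in mtsf1 against Col-0. Scaling each library by the median ratio of its genes to their geometric mean over libraries left atp8 at -1.17 and atp4 at -0.46 in mtsf1 against Col-0. The deposited scaling may already be of that kind, so this is no independent check.

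**Figure D2:**
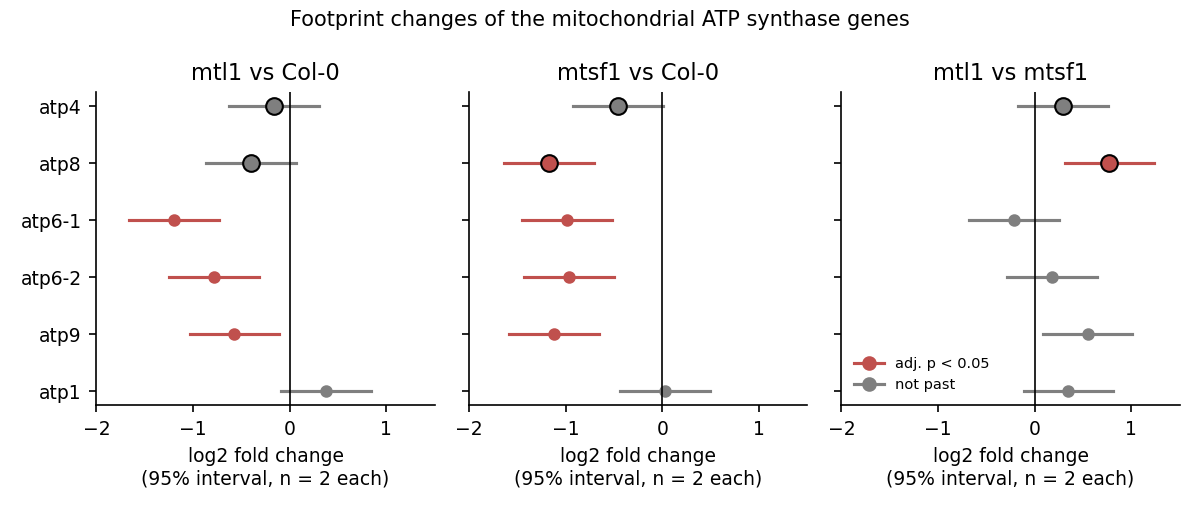
Log2 fold changes (x axis) with 95% intervals of the 6 mitochondrial ATP synthase genes in 3 contrasts, with n = 2 libraries per genotype and red for a limma adjusted p below 0.05. The larger black-rimmed points are atp4 and atp8, and of these atp8 alone is red, at -1.17 in mtsf1 against Col-0 and 0.77 in mtl1 against mtsf1.

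The other mitochondrial ATP synthase genes encode the a subunit of the proton channel (atp6-1 and atp6-2), the ring subunit c (atp9) and the catalytic alpha subunit (atp1). In mtsf1, 4 of the 6 ATP synthase genes fell and 0 rose. Over all 33 genes, 7 fell, or 21.2%, and 9 rose. The median log2 fold change was -0.97 for the ATP synthase genes and 0.03 for all genes. Those 4 were atp8, atp9 (-1.12), atp6-1 (-0.98) and atp6-2 (-0.96), while atp4 and atp1 (0.03) did not pass. In mtl1, 3 of 6 fell and 0 rose: atp6-1 (-1.20), atp6-2 (-0.78) and atp9 (-0.57). Over all 33 genes, 6 fell there, or 18.2%, and 5 rose, and the median was -0.48 for the ATP synthase genes and -0.13 for all genes. atp8, atp4 and atp1 (0.38) did not pass there. The atp6 genes share most of their sequence, so their separate values are uncertain.

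Within the summed counts of the 6 ATP synthase genes, atp8 made up 9.11% and 12.7% in mtsf1, 15.4% and 13.1% in mtl1, and 17.9% and 16.5% in Col-0. For atp4 the shares were 11.3% and 7.76% in mtsf1, 8.79% and 8.96% in mtl1, and 7.94% and 10.5% in Col-0. The atp8 share was lower in each mutant library than in either Col-0 library, in mtl1 by a small margin (15.4% in A against 16.5% in Col-0 B). The atp4 shares of the genotypes overlapped. How many of the other ATP synthase genes separate by share was not counted. In the normalized counts, 15 of 33 genes (45.5%) lay below Col-0 in this way in mtl1 and 13 (39.4%) in mtsf1. Whether the 2 genes differ in their shares was not tested. A share also moves with the other genes in the sum: atp1 averaged 51191 normalized counts in mtl1 and 39412 in Col-0.

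Levels of different genes were compared per kilobase of coding length, over the 31 genes other than the atp6 genes. atp8 averaged 27397 ± 2849 normalized counts per kb in mtl1, 16323 ± 4619 in mtsf1 and 36224 ± 5757 in Col-0 (SD, n = 2 each). These means placed it 4th, 6th and 2nd of 31 genes in mtl1, mtsf1 and Col-0. In Col-0 only atp9 had a higher mean, at 83100 normalized counts per kb and with no overlap of libraries. By single library, atp8 was 2nd in Col-0 A and 4th in Col-0 B. The next gene below by mean was cox2, a complex IV subunit. Its libraries (36056 and 34387) lay within the atp8 range of 40294 and 32153. atp4 averaged 14051 ± 341 normalized counts per kb in mtl1, 11591 ± 2409 in mtsf1 and 15759 ± 1474 in Col-0 (SD, n = 2 each). It was 9th in both mutants and 7th in Col-0, where its libraries overlapped those of its neighbours in the order, cox1 above and nad9 below.

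The ratio of atp8 to atp4 within a library does not depend on how libraries were scaled to each other. Per kilobase of coding length it was 2.13 and 1.78 in mtl1 A and B, 0.982 and 1.98 in mtsf1, and 2.74 and 1.91 in Col-0. mtsf1 A was the only library with as many footprints per kb on atp4 as on atp8, and mtsf1 B lay inside the range of the Col-0 libraries. On the log2 scale of the ratio of normalized counts, the mean was 0.20 ± 0.72 in mtsf1 and 0.92 ± 0.37 in Col-0 (SD, n = 2 each), a difference of -0.71. The exact two-sided permutation test gave p = 0.667, where the smallest p that 2 against 2 libraries allow is 0.333. In mtl1 the mean was 0.68 ± 0.19, which differed by -0.24 from Col-0 and by 0.48 from mtsf1, with the same exact permutation p of 0.667 for each. Over all 3 genotypes the exact permutation p was 0.533, with a smallest possible p of 0.0667. That atp8 passed in mtsf1 and atp4 did not is thus not shown to be a difference between the genes.

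**Figure D3:**
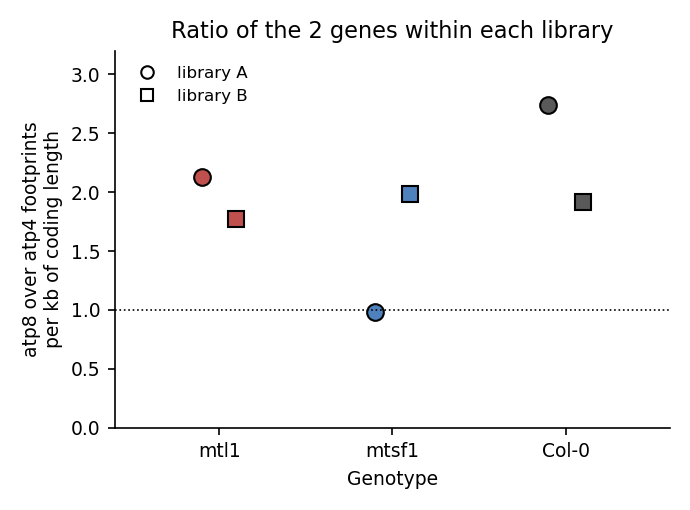
Footprints of atp8 over those of atp4 per kb of coding length (y axis, from 0), with a circle for library A and a square for library B of mtl1, mtsf1 and Col-0, and a dotted line at equality. Of the 6 libraries, 5 lie between 1.78 and 2.74, and mtsf1 A lies at 0.982.

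The difference between libraries A and B was of opposite sign for the 2 genes in each genotype. As A minus B on the log2 scale, atp4 had -0.05 in mtl1, 0.43 in mtsf1 and -0.19 in Col-0, and atp8 had 0.21 in mtl1, -0.59 in mtsf1 and 0.33 in Col-0. The median size of that difference over the 33 genes was 0.20 in mtl1, 0.27 in mtsf1 and 0.31 in Col-0, so both genes varied more than the median gene in mtsf1.

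Profiles over the 6 libraries were compared by the root mean square difference of log2 values after each gene was centred on its own mean, with 32 other genes for each. The closest to atp4 were cox2 (0.09 log2 units), cox1 (0.13) and the complex I gene nad5 (0.20). The closest to atp8 were atp6-2 (0.26), atp9 (0.31) and cox2 (0.44). Footprints of nad4L, the gene before atp4, numbered 3190 and 3006 normalized counts in mtsf1, 3032 and 2492 in mtl1, and 2983 and 3018 in Col-0. Per kb of coding length, atp4 over nad4L was 1.26 and 0.997 in mtsf1, 1.38 and 1.74 in mtl1, and 1.495 and 1.69 in Col-0. Both mtsf1 libraries were thus below the other 4, narrowly so for mtsf1 A (1.26 against 1.38 in mtl1 A). The atp4 counts alone already had both mtsf1 libraries lowest. nad4L was a later addition, no other gene was tried in its place, and this separation was not tested.

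The stated purpose of the RNA-seq was to observe editing in Col-0. A level is the share of T among T and C reads at a site, and levels were averaged only where both libraries had 20 or more T and C reads. For atp4, 8 of the 10 sites met that minimum (226 of 434 in the whole tables), with a mean level of 86.5% ± 0.0395 (SD of the 2 library means) and a median of 99.4%. 6 of the 8 were edited at 90% or more, and site levels ran from 9.96% to 100%. The SD does not measure agreement at single sites, where A minus B took both signs (2.7 percentage points at position 250, -3.26 at position 144). No atp4 site differed between libraries A and B by Fisher's exact test (smallest unadjusted p = 0.15, Benjamini-Hochberg adjusted p = 1.0 for all 8), and 1 of the 226 sites, 0.442%, did.

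Of the 6 sites with enough reads that change the amino acid when edited alone, 5 were edited at 90% or more. The exception was position 250. Editing there leaves the amino acid unchanged where the next base of its codon is edited too, since CTG and TTG both encode leucine. That next base was edited in nearly all reads. At position 89, a TCA codon for serine becomes TTA for leucine (S30L), and all 29 reads of A and all 30 of B had T. A count of 0 unedited reads there allows an unedited share of up to 10.3% in A and 10.0% in B. At position 215, which gives S72L from TCG to TTG, all 21 and 28 reads had T, which allows an unedited share of up to 14.3% and 10.7%. At position 248, which gives P83L from CCT to CTT, T was read in 320 of 321 reads in A (99.7%, Wilson 95% interval 98.3 to 99.9) and in 938 of 941 in B (99.7%, 99.1 to 99.9). These intervals cover counting error only, since reads without molecular identifiers are not independent molecules.

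Position 416, which gives T139I from ACT to ATT, had T in 63 of 64 reads in A (98.4%, Wilson 95% interval 91.7 to 99.7) and in all 363 reads in B, which allows an unedited share of up to 0.826%. Position 395, which gives S132L from TCA to TTA, fell under the coverage minimum, with T in 27 of 27 reads in A and 4 of 4 in B. Those 4 reads set a Wilson lower bound of 51.0%. Each of these 5 codons encodes leucine or isoleucine once edited.

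Positions 250 and 251 are the first and second base of the same codon, CCG for proline 84, seen as the adjacent capitals of its window. At the second base, T was read in 556 of 556 reads in A, an unedited share of at most 0.540%, and in 1130 of 1131 in B (99.9%, Wilson 95% interval 99.5 to 99.98). The first base was edited in part, with T in 411 of 483 reads in A (85.1%, Wilson 95% interval 81.6 to 88.0) and in 949 of 1152 in B (82.4%, 80.1 to 84.5). Edited at the second base alone the codon is CTG, and edited at both it is TTG, and both encode leucine. Edited at the first base alone it is TCG, for serine. From the 2 levels as read, without their counting error, 14.9% of transcripts in A and 17.5% to 17.6% in B would carry CTG. By the same levels, 85.1% in A and 82.3% to 82.4% in B would carry TTG, and up to 0.0900% in B would carry TCG. The Wilson lower bounds at the second base, 99.3% in A and 99.5% in B, leave room for a larger TCG share. All these shares take the reads at both positions to sample the same transcripts, since the tables do not give both bases of 1 read. The depths of the first and second base differed, at 483 and 556 in A and 1152 and 1131 in B. Some reads therefore gave 1 of the bases alone, and the shares are approximate.

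The 3 sites that leave the amino acid unchanged on their own spread over the whole range. Position 138, the third base of an isoleucine codon, was edited in 36 of 36 reads in A and 63 of 64 in B (98.4%, Wilson 95% interval 91.7 to 99.7). Position 144, the third base of a phenylalanine codon 6 bases further on, was edited in 3 of 36 reads in A (8.33%, Wilson 95% interval 2.88 to 21.8) and 8 of 69 in B (11.6%, 5.99 to 21.3). The intervals of these neighbouring sites did not overlap in either library. Position 382, the first base of a leucine codon, had T in 9 of 31 reads in A (29.0%, Wilson 95% interval 16.1 to 46.6) and in 1 of 10 in B, under the coverage minimum.

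**Figure D4:**
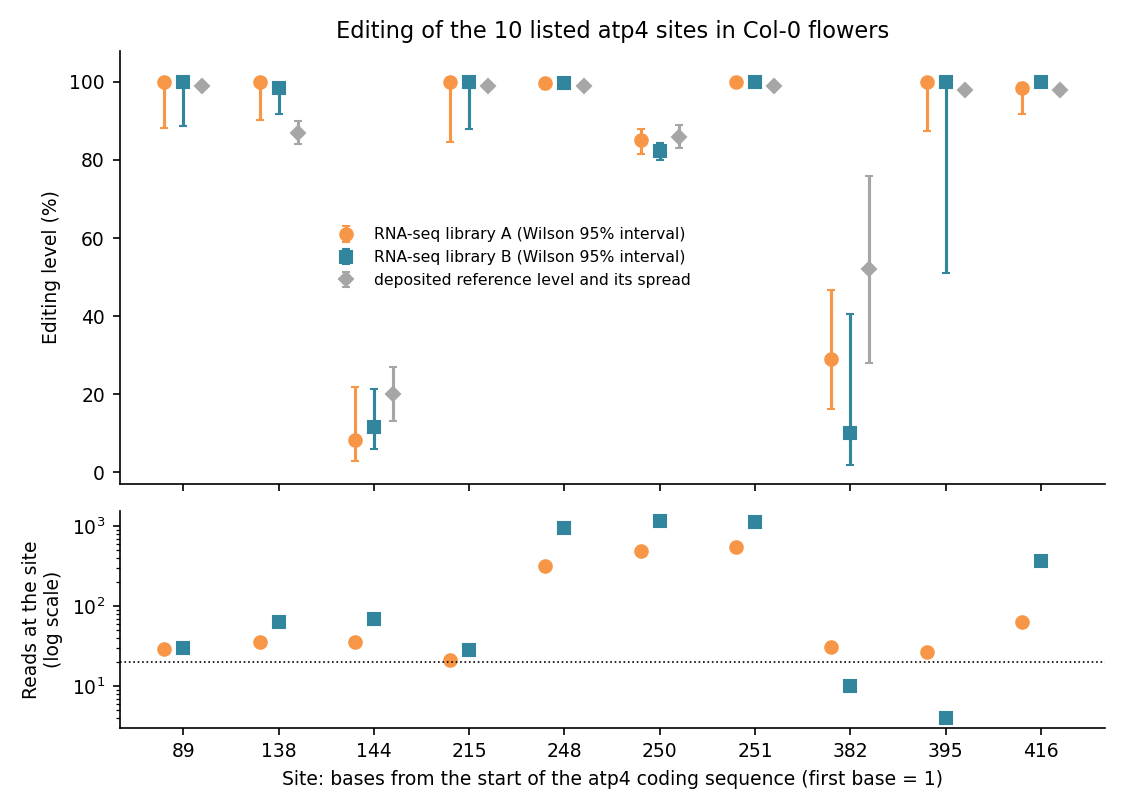
Editing level (top, percent) of the 10 atp4 sites by position in the coding sequence, for RNA-seq libraries A and B with Wilson 95% intervals, beside the deposited reference level with its spread, and the reads at each site (bottom, log axis, dotted line at 20 reads). Levels lie near 100% except at position 144 (8.33% and 11.6%), position 250 (85.1% and 82.4%) and position 382 (29.0% and 10.0%), and reads are most numerous at positions 248 to 251.

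Levels by kind of site are given beside those of the other genes as a description, with no test, because sites of 1 transcript share reads. By the annotation of TAIR10.1, which writes codon 84 as a joint change and so counts position 250 with the amino acid changes, 5 of 6 such atp4 sites with enough reads reached 90%, and in other genes 154 of 157 did, with a median of 100%. Of sites annotated as synonymous, 1 of 2 in atp4 reached 90%, and in other genes 6 of 29 did, with a median of 11.3%. Sites 1 base apart with enough reads occurred 8 times in other genes. In 7 of those pairs both sites were at 90% or more. In atp4 the second site stood 16.2 percentage points above the first, while in the other pairs this difference ran from -15.8 to 2.65.

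The tables also give a reference level for each site of unstated origin. At position 138 the mean of the 2 libraries was 99.2%, against a reference of 87% with a spread of 3 percentage points. At position 144 it was 9.96%, against 20% with a spread of 7, and at position 250 it was 83.7%, against 86% with a spread of 3. The remaining 5 sites with enough reads lay within 1.22 percentage points of their reference.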

How the data were processed

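The members and gene lists were chosen with earlier results of these data known. Per the submitters' processing notes, FastQC, cutadapt 1.9.1 and Bowtie 1.1.2 were run on all libraries and featureCounts 1.5.0-p2 on the Ribo-seq. Which editing caller, build and strand setting were used, and how reads with several matches were treated, is not stated in those notes or the labels. The Ribo-seq table deposited by the authors gives a normalized score for each gene, that is, a read count scaled by a method not stated and rounded to whole numbers, so depth is unknown. The deposited editing tables give the count of reads with each base, an editing fraction left empty at 10 reads or fewer, and a reference fraction with its spread. Their sites held 46892 reads in A (median 24) and 100704 in B (median 43).

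The footprint values of the 6 libraries, as log2 after adding 1, entered 1 linear model with a coefficient for each genotype (limma 3.58.1, R 4.3.3), and fold changes refer to this scale. A gene needed a value above 0 in 2 or more libraries, which all 33 had. Tests were two-sided, with Benjamini-Hochberg adjustment over 33 genes and a threshold of 0.05. limma gave every gene 1 shared variance with 99 degrees of freedom, hence 1 standard error. Ratios were compared by exact permutation of libraries. Editing levels, Wilson intervals and Fisher's exact tests used T and C reads, with adjustment over 226 sites, and the limit for a count of 0 is 3 counts over the reads. Matching the deposited site sequences to TAIR10.1, with C read as T, gave 394 of 434 sites 1 place. Named were both members, the other ATP synthase genes, nad7 and nad4, the 3 genes closest in profile and all atp4 sites, while nad4L and the neighbours in level were added later. Each step was tested on simulated data. Other computations ran in Python 3.11.15 with scipy 1.17.1 for the tests, and numpy 2.4.6, pandas 2.3.3 and statsmodels 0.14.6.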

Additional observations from a re-analysis of the deposited data

How the results depend on the processing

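Each footprint change was recomputed under 15 alternatives and kept its direction in all of them. atp8 in mtsf1 against Col-0 (-1.17) lost its call only with each gene's own variance (limma adjusted p = 0.0878), as did atp8 in mtl1 against mtsf1 (0.77, limma adjusted p = 0.306), whose call was also lost without mtl1 A or mtsf1 A. With 1 library left out, atp8 ranged from -1.46 to -0.88 in mtsf1, -0.56 to -0.23 in mtl1 and 0.48 to 1.06 between the mutants (the last with 2 of 6 fits not past the threshold), and atp4 from -0.67 to -0.24, -0.26 to -0.07 and 0.08 to 0.51, of which only -0.67, without mtsf1 A, passed. Where a genotype was left with 1 library, that library was assumed to vary like the others. Genes called fell to 1 in mtl1 and 4 in mtsf1 with own variances, and rose to 13 between the mutants with equal totals. The log2 ratio of atp8 to atp4 ranged from -0.49 to 0.02 in mtl1, -1.22 to -0.21 in mtsf1 and -0.03 to 0.99 between the mutants with 1 library left out.

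The mean editing level of atp4, 86.5% over 8 sites, was 81.1% over 10 sites with at least 1 read, 95.7% over 4 with at least 50 and 94.5% over 3 with at least 100. It was 82.1% without library B (10 sites) and 86.5% without library A. These settings differ in which sites and libraries enter the mean, and the shifts are not a measure of how editing depends on depth. Positions 382 (19.5%) and 395 (100%) entered at 1 read. Position 144 (9.96%) was among the sites left out at 50 reads. No mean level could be given for atp8. The count of 0 differing atp4 sites was the same in 4 alternatives.

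The replicate letters were not taken to pair libraries: differences A minus B correlated across 33 genes with r = -0.136 between mtl1 and mtsf1, 0.0656 between mtl1 and Col-0 and 0.00394 between mtsf1 and Col-0. With a replicate block, atp8 kept -1.17 in mtsf1 and the genes called were 10, 16 and 8 in mtl1, mtsf1 and between the mutants.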

Other observations

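How reads with several matches were counted bears unequally on the 2 genes. Of the 448 words of 30 bases in the atp8 coding sequence, all 448 also occur on nuclear chromosome 2 of TAIR10.1, and 71 (15.8%) occur a second time on the mitochondrial genome. Of the 550 words of atp4, 0 occur on chromosomes 1 to 5, on the plastid genome or again on the mitochondrial genome. Among the 31 genes other than the atp6 genes, 15 had all their words on chromosome 2 and 4 had none there. The repeated stretch of atp8 is the last 100 bases of its coding sequence, MT:247016-247115, and its second copy at MT:206345-206444 overlaps 0 annotated coding sequences. The part of these copies in the atp8 footprints was not tested.

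Read depth along atp4 was uneven in the RNA-seq. It ran from 21 reads at position 215 to 556 at position 251 in library A, and from 4 at position 395 to 1153 at position 250 in library B. Library B had more reads at 8 of the 10 sites and fewer at positions 382 and 395, so that the ratio of B to A ran from 0.148 to 5.67 among sites of 1 transcript.

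TAIR10.1 annotates 11 editing sites in atp4, 10 of which are the listed ones, and 4 in atp8, all 4 marked as of minor frequency and 3 of them synonymous. Their levels were not analysed here. Bases other than C and T were read at 2 listed atp4 sites, 1 read each at positions 248 and 250, both in library B.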
